A study of Homo sapiens with 40 samples.

Results

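The 10 genes described here serve amino acid transport and the integrated stress response, and they were measured after an inducible shRNA against CASP10 was switched on in myeloma and lymphoma cell lines. They were chosen by name from the array's probe-to-gene table, with earlier results of these data known, and 25 of its 15246 probes report them. Where counts of members stand beside shares of all features below, they are therefore descriptions. With the probes of a gene averaged, they are 10 of 4604 named genes and 10 of 9681 features tested, where a feature is a named gene or a probe without a single gene name. ATF4 and DDIT3 have 5 probes each, ATF3, CEBPB and CBS 3 each, SLC3A2 has 2, and SLC7A5, ASNS, MTHFD2 and PPP1R15A have 1 each.

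The study hybridised 40 lymphochip arrays, spotted 2-colour arrays built around lymphoid genes. SKMM1, H929 and KMS12 are multiple myeloma lines, and OCI-Ly7 and OCI-Ly19 are lymphoma lines that the study used as controls. All lines were transduced with retroviral vectors and selected with puromycin, so the uninduced cells carried the vector as well. The hairpin shCasp10-2 was used in all 5 lines and shCasp10-3 in H929 and KMS12. Induced cells received doxycycline at 20 ng/ml for 1 to 5 days, and their RNA was labelled with Cy5. The Cy3 channel held RNA of uninduced cells of the same line, hairpin and day, except on 4 SKMM1 arrays where it held RNA of SKMM1 cells with a control shRNA. By set there were 12 SKMM1 arrays against uninduced cells, 8 of H929 with shCasp10-2, 4 of H929 with shCasp10-3, 4 of KMS12 with each hairpin and 2 of each lymphoma line. The labels describe pools of selected cells and no single clones. The question of the study was which genes respond to caspase 10 in myeloma.

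The integrated stress response is a shared pathway in which kinases that sense amino acid shortage, misfolded protein, double-stranded RNA or haem shortage phosphorylate the initiation factor eIF2. General translation then slows, while the mRNA of the transcription factor ATF4 is translated more. ATF4 pairs with C/EBP proteins and switches on amino acid transporters, biosynthetic enzymes and further factors. In plasma cells and myeloma, which secrete large amounts of immunoglobulin, this pathway works beside the unfolded protein response.

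All values below are deposited log ratios, read as log2 of Cy5 over Cy3, so that a value below 0 means less mRNA signal in the induced cells. The base of the logarithm and the direction of the ratio were not stated in the labels, and Cy5 over Cy3 is likely from the dyes. Without intensities, no statement on signal above background can be made, and the number of arrays limits the precision. Dyes were never swapped, so each response against 0 includes any dye effect. On 12 arrays more than 10% of all probes lay beyond 3 in absolute log ratio. These arrays are called wide, and the other 28 are called kept. On wide arrays almost all values beyond 3 lay below -3. On OCI-Ly7 day 3 and SKMM1 repeat 3 day 4 almost all of them lay above 3 instead. Of the 378 pairs of kept arrays, 9 correlated below -0.3 over all probes, the lowest at -0.472 between SKMM1 repeat 3 on day 2 and KMS12 shCasp10-2 on day 3. With wide arrays included, 87 of 780 pairs did. The lowest of these, at -0.517, was between the SKMM1 day 5 arrays, repeat 2 (kept) and repeat 1 (wide). The labels state the same dyes for all of them, and the direction was kept as deposited.

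CASP10, the gene the hairpins target, was below 0 on 19 of the 21 kept myeloma arrays against uninduced cells, with a median of -0.30 and a range from -0.89 to 0.13. It was also below 0 on the 4 arrays against the control shRNA, from -0.74 to -0.43. The OCI-Ly7 array labelled shCasp10-2 on day 4 stood at 1.50, and the OCI-Ly19 arrays at -0.24 and 0.12, so 1 of these 3 kept lymphoma arrays was below 0, at a level found among the kept myeloma arrays, and both others were above 0.

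Several statements below turn on whether the genes move together, and sequences near their start sites are given for that reason. They come from RefSeq on GRCh38.p14, in windows from 250 bases before to 50 bases after a start site, and all 10 genes had at least 1 window, 19 in all. The motif TGATGNAA, the composite of an ATF4 and a C/EBP site, was searched on both strands, as was the E-box CACGTG. The first was found in 3 of the 19 windows, in ASNS, ATF3 and SLC3A2, and in 3.62% of all 35116 windows. The second was found in SLC7A5 and in both overlapping windows of ATF4, and in 7.26% of all windows. The runs below read 5′ to 3′ on the gene's strand, with the match in capitals.

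ASNS, 250 bases before the start site, chr7:97872409-97872658, minus strand: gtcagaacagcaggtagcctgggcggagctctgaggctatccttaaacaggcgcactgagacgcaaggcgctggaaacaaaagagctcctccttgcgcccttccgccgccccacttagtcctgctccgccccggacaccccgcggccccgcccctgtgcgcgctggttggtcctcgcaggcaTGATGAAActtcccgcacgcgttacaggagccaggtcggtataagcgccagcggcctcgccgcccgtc
ATF3, 30 bases around the match, chr1:212565205-212565234, plus strand: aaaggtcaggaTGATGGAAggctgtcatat
SLC3A2, 30 bases around the match, which is on the opposite strand, chr11:62881719-62881748, plus strand: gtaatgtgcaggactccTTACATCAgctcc
SLC7A5, 250 bases before the start site, chr16:87869508-87869757, minus strand: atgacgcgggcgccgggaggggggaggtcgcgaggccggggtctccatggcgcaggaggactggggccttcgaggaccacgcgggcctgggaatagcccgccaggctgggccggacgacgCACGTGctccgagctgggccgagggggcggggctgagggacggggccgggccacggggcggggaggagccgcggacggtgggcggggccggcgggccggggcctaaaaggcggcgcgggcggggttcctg
ATF4, 250 bases before the start site, chr22:39520309-39520558, plus strand: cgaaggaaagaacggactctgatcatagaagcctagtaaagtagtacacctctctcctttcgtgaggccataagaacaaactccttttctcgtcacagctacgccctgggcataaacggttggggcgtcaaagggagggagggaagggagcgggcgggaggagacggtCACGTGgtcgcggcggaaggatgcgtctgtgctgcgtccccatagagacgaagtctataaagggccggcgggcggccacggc

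Counted from the start site, the ASNS match began at -68, the ATF3 match at -191, the SLC3A2 match at 38, the SLC7A5 match at -130 and the ATF4 match at -82. A match describes these letters and does not show that a factor binds there. Windows of CEBPB, CBS, DDIT3, MTHFD2 and PPP1R15A held neither run of letters.

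**Figure D1:**
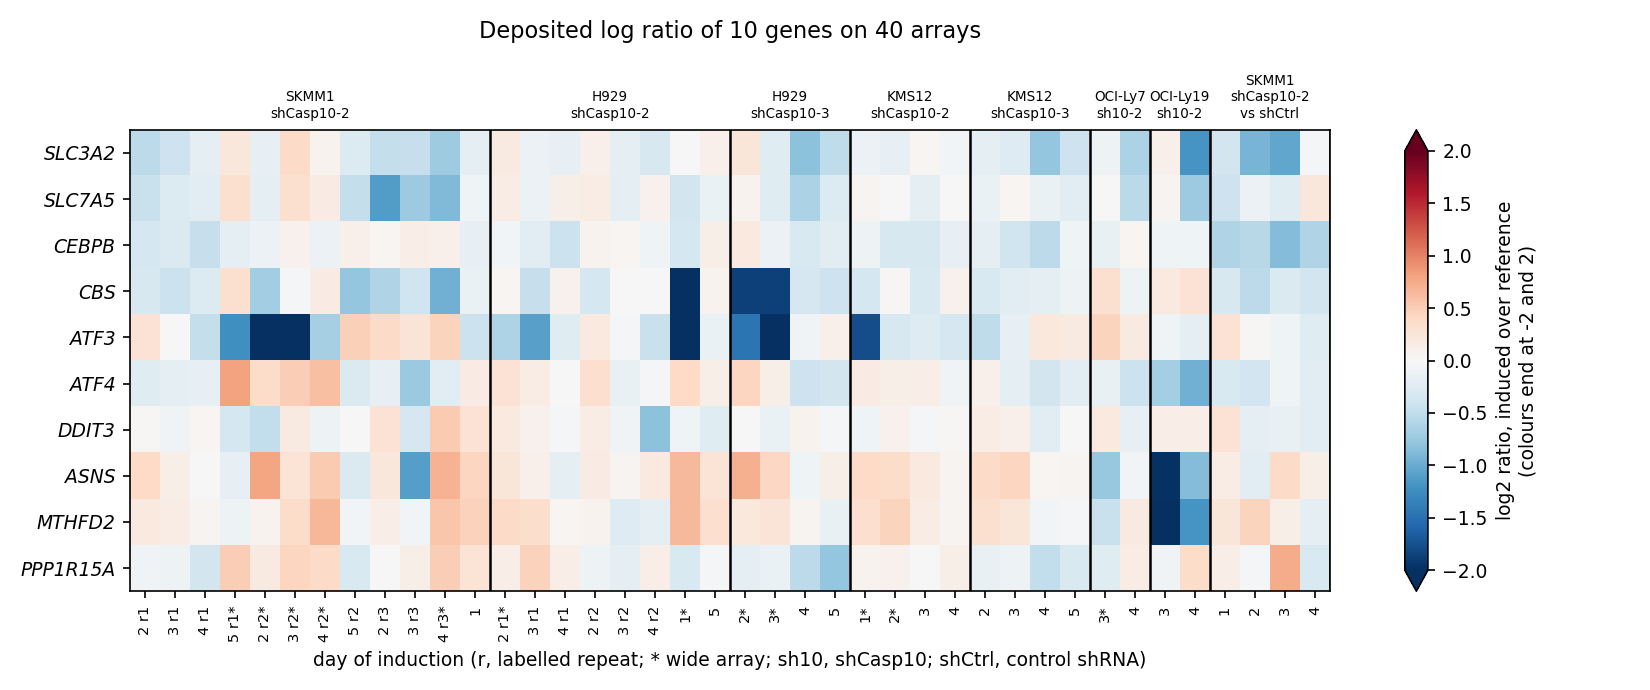
Each row is a gene and each column an array, coloured by the deposited log2 ratio of induced cells over their reference, with columns grouped by line and hairpin and wide arrays starred. SLC3A2, SLC7A5, CEBPB and CBS are mostly blue on kept myeloma arrays, ATF3 and CBS are darkest on wide arrays, and ASNS and MTHFD2 are deepest blue in OCI-Ly19.

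SLC3A2 encodes the 4F2 heavy chain (CD98), which brings several light-chain amino acid transporters to the cell surface. In SKMM1 it stood at -0.19 on day 1 and at -0.52, -0.42 and -0.19 on days 2, 3 and 4 of repeat 1. In repeat 3 it stood at -0.48 and -0.46 on days 2 and 3, and at -0.28 on the kept day 5 array. All 7 kept SKMM1 arrays were therefore below 0, which held for 6.28% of all features and for 3 of the 10 members. In H929 with shCasp10-2 the 6 kept arrays ranged from -0.32 to 0.11 and lay on both sides of 0, while with shCasp10-3 the kept arrays of days 4 and 5 stood at -0.82 and -0.52. In KMS12 days 3 and 4 gave 0.040 and -0.047 for the hairpin shCasp10-2, whereas shCasp10-3 gave -0.20, -0.26, -0.77 and -0.41 over days 2 to 5. In KMS12 all kept arrays of shCasp10-3 were below those of shCasp10-2, which held for 9.97% of all features. On day 4 of H929 shCasp10-3 was lower too, and 5.39% of all features and 2 of the 10 members, SLC3A2 and PPP1R15A, separated in both lines. With 2 arrays against 4 and 1 against 2, these separations are given as a description.

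SLC7A5 encodes LAT1, the light chain that pairs with SLC3A2 and imports large neutral amino acids such as leucine. In SKMM1 it stood at -0.45, -0.27 and -0.21 on days 2 to 4 of repeat 1 and at -1.11 and -0.73 on days 2 and 3 of repeat 3. Day 1 gave -0.079 and the kept day 5 array -0.48. As for its partner, all 7 kept SKMM1 arrays were below 0, and repeat 3 was the lower of the repeats on both days. The H929 arrays with shCasp10-2 ranged from -0.18 to 0.15, and shCasp10-3 gave -0.64 and -0.28 on days 4 and 5. KMS12 stayed close to 0, from -0.18 to 0.004 with shCasp10-2 and from -0.23 to 0.032 with shCasp10-3.

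Over the 21 kept myeloma arrays, SLC3A2 was below 0 on 18 and SLC7A5 on 16. The probes of SLC3A2 gave similar counts, 18 and 17, with medians of -0.28 and -0.21.

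ATF4, the central transcription factor of the response, ranged from -0.75 to 0.33 on the kept myeloma arrays, with a median of -0.16. SKMM1 repeat 1 gave -0.24, -0.18 and -0.17 on days 2 to 4, and repeat 3 gave -0.16 and -0.75 on days 2 and 3. H929 with shCasp10-2 gave values from -0.16 to 0.33, against -0.42 and -0.37 with shCasp10-3. In KMS12 days 3 and 4 of shCasp10-2 gave 0.13 and -0.077, whereas shCasp10-3 gave 0.099, -0.18, -0.37 and -0.23 over days 2 to 5. The kept SKMM1 arrays of days 2 to 4 and the kept shCasp10-3 arrays were below 0, except day 2 of KMS12. The 5 probes were below 0 on 10 to 16 of the 21 arrays, with medians from -0.18 to 0.020. On the wide arrays of SKMM1 repeat 2 ATF4 was instead above 0, at 0.37, 0.50 and 0.60 on days 2 to 4.

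CEBPB encodes C/EBPbeta, a dimerisation partner of ATF4. It stood at -0.34, -0.29 and -0.46 on days 2 to 4 of SKMM1 repeat 1 but at 0.044 and 0.13 on days 2 and 3 of repeat 3, so the repeats lay on opposite sides of 0. All 6 kept KMS12 arrays were below 0, as for 11.6% of all features and no other member, from -0.33 to -0.16 with shCasp10-2 and from -0.52 to -0.083 with shCasp10-3. H929 ranged from -0.43 to 0.11 with shCasp10-2 and gave -0.30 and -0.23 with shCasp10-3. Of its 3 probes, 2 were below 0 on 17 and 18 of 21 arrays, and the other on 11 with a median of -0.020.

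ATF3, a stress-induced factor that ATF4 switches on, had no common direction on kept arrays, with 13 of 21 below 0, a median of -0.068 and a range from -1.09 to 0.47. It was far lower on the wide arrays named next, where many other probes were low as well. The share of all probes below -3 ran there from 11.3% on day 1 of KMS12 to 46.3% on day 1 of H929. SKMM1 repeat 2 gave -2.82 and -3.82 on days 2 and 3, H929 with shCasp10-3 gave -1.46 and -2.04 on the same days, and the day 1 arrays of H929 and KMS12 gave -4.21 and -1.78. The probes disagreed, since 1 of the 3 had a median of 0.25 on kept arrays and a lowest value of -3.32 there.

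DDIT3 encodes CHOP, a pro-apoptotic factor downstream of ATF4. It was below 0 on 10 of the 21 kept arrays, with a median of 0.008. A single array, day 4 of H929 repeat 2, stood at -0.83, and the other H929 arrays with shCasp10-2 ranged from -0.25 to 0.15. PPP1R15A encodes GADD34, the phosphatase subunit that removes the phosphate from eIF2 and ends the response. It was below 0 on 13 of 21 kept arrays, with a median of -0.095 and a range from -0.78 to 0.46. Its lowest values came with shCasp10-3, at -0.52 and -0.78 on days 4 and 5 of H929 and at -0.49 on day 4 of KMS12.

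ASNS makes asparagine and is a classical ATF4 target. It was above 0 on 17 of 21 kept myeloma arrays, with a median of 0.12. KMS12 with shCasp10-3 gave 0.38, 0.43, 0.040 and 0.059 on days 2 to 5, and SKMM1 repeat 1 gave 0.40, 0.12 and 0.007 on days 2 to 4. The lowest value by a wide margin was -1.09 on day 3 of SKMM1 repeat 3, 1 day after 0.22 in the same repeat. MTHFD2, a mitochondrial enzyme of one-carbon metabolism, was above 0 on 14 of 21 kept arrays, with a median of 0.062 and a range from -0.26 to 0.46. In SKMM1 repeat 1 it stood at 0.20, 0.15 and 0.048 on days 2 to 4 and in KMS12 with shCasp10-3 at 0.33, 0.25 and -0.052.

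CBS is the first enzyme of transsulfuration, which turns homocysteine into cystathionine on the way to cysteine. In SKMM1 it stood at -0.33, -0.43 and -0.28 on days 2 to 4 of repeat 1, at -0.61 and -0.40 on days 2 and 3 of repeat 3, at -0.14 on day 1 and at -0.78 on the kept day 5 array. H929 with shCasp10-2 ranged from -0.46 to 0.081, and with shCasp10-3 the kept arrays gave -0.34 and -0.42. KMS12 gave -0.30 and 0.093 for shCasp10-2, whereas the 4 arrays of shCasp10-3 gave -0.30, -0.22, -0.18 and -0.10. It was thus below 0 on every kept array of SKMM1 and of both shCasp10-3 sets, as were SLC3A2 and 2.41% of all features, and on 17 of 21 in all. Its 3 probes were below 0 on 11, 18 and 16 arrays. On wide arrays CBS reached -4.08 on day 1 of H929 and -1.86 and -1.88 on days 2 and 3 of H929 with shCasp10-3. Of all probes, 46.3%, 14.5% and 17.7% lay below -3 on these arrays, in the same order.

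**Figure D2:**
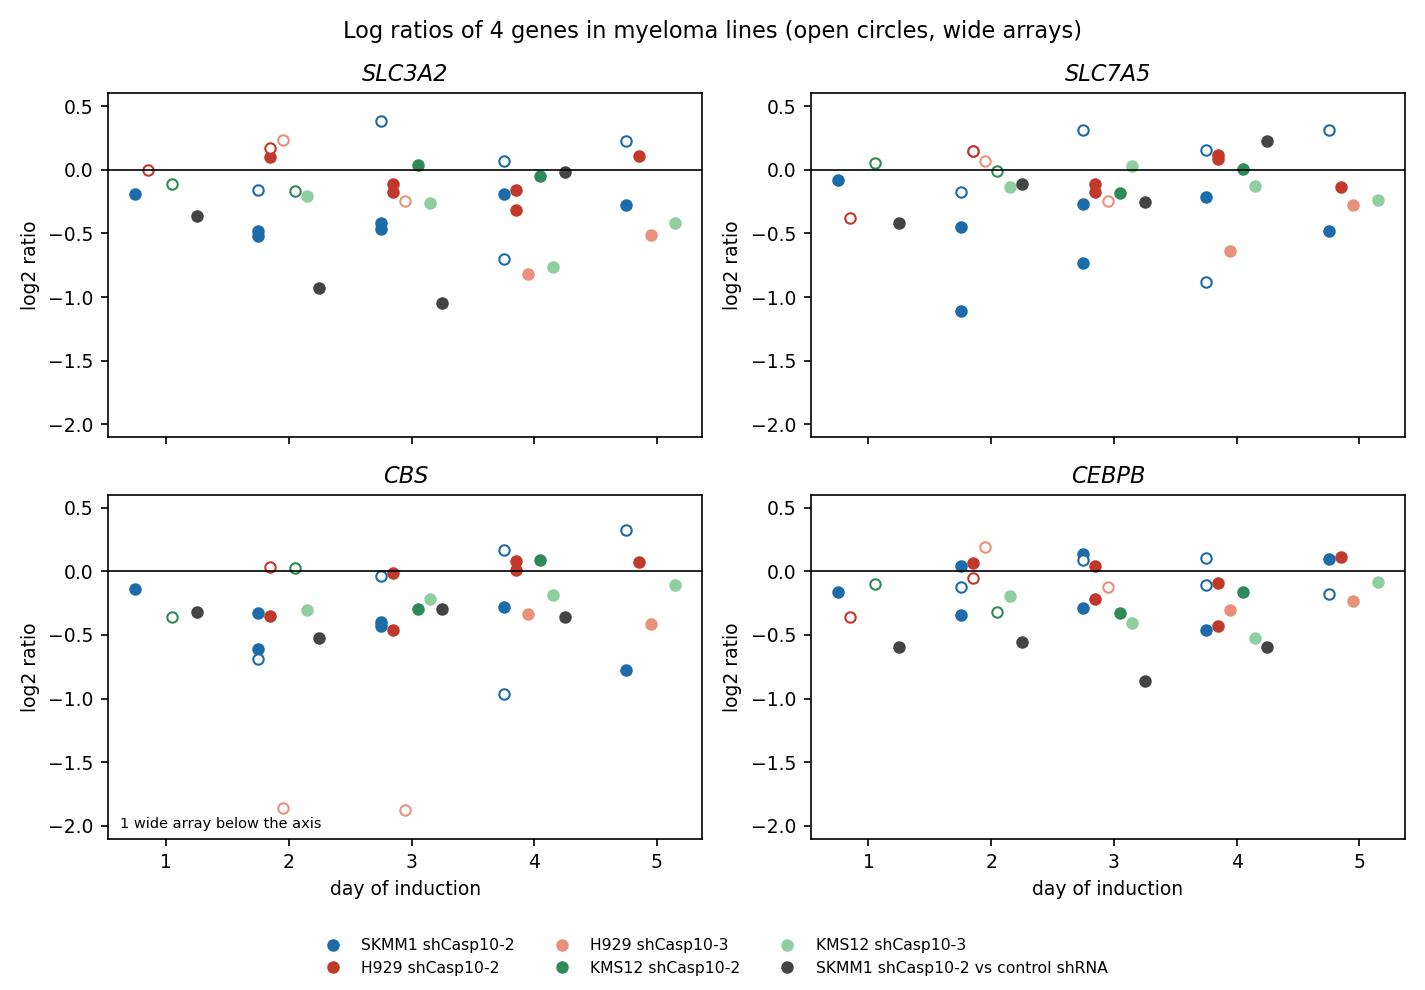
Each panel shows the log2 ratio of a gene against the day of induction, with filled circles for kept arrays, open circles for wide arrays and colours for the sets of myeloma arrays. Most filled circles lie below 0, and those of SKMM1 (blue) lie below 0 on all days for SLC3A2, SLC7A5 and CBS.

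To test the response over the myeloma lines, each course (a line and hairpin followed over days, with its repeat number) was averaged over its kept arrays of days 2 to 4, and the 3 lines were weighted equally with limma. This left 7 courses and 16 arrays, H929 with shCasp10-3 resting on day 4 alone and SKMM1 repeat 2 dropping out because all its arrays of those days were wide. No feature passed an adjusted p of 0.05 in this test (0 of 9681, 0%), 1444 had an unadjusted p under 0.05, and no member was called. Without SKMM1 repeat 1 the test called 197 features, none of them a member. The largest estimates among the members were -0.33 for SLC3A2 (SE 0.12, adjusted p = 0.31), -0.30 for SLC7A5 (SE 0.13, adjusted p = 0.34), -0.27 for CBS (SE 0.074, adjusted p = 0.27) and -0.22 for CEBPB (SE 0.093, adjusted p = 0.35), all from limma. ATF4 was estimated at -0.16, ATF3 at -0.13, PPP1R15A at -0.080, DDIT3 at -0.019, ASNS at 0.025 and MTHFD2 at 0.087. CASP10, the target of the hairpins, was estimated at -0.27 and was not called either (SE 0.084, adjusted p = 0.27 in limma). The estimates of 8 of the 10 genes were below 0 and their median was -0.14, against a median of 0.017 and 46.9% below 0 over all features. SLC7A5 rested in part on SKMM1 repeat 3, and its estimate was -0.20 without that course and 0.006 with the sign of that course turned. With that sign turned the estimate of SLC3A2 was -0.17 and that of CBS -0.10 (adjusted p = 0.78 in limma), both much closer to 0.

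SLC3A2 and CBS were below 0 in all 7 course means. The SLC3A2 means ranged from -0.82 in H929 with shCasp10-3 to -0.003 in KMS12 with shCasp10-2, with an SD of 0.28. Those of CBS ranged from -0.50 in SKMM1 repeat 3 to -0.10 in KMS12 with shCasp10-2, with an SD of 0.14. Over all features 4.18% were below 0 in all 7 courses, so 2 of 10 members stand beside that share. With the sign of SKMM1 repeat 3 turned, both genes would be below 0 in 6 of the 7. ATF3 was below 0 in 6 courses, SLC7A5 and CEBPB in 5, and MTHFD2 in 1.

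**Figure D3:**
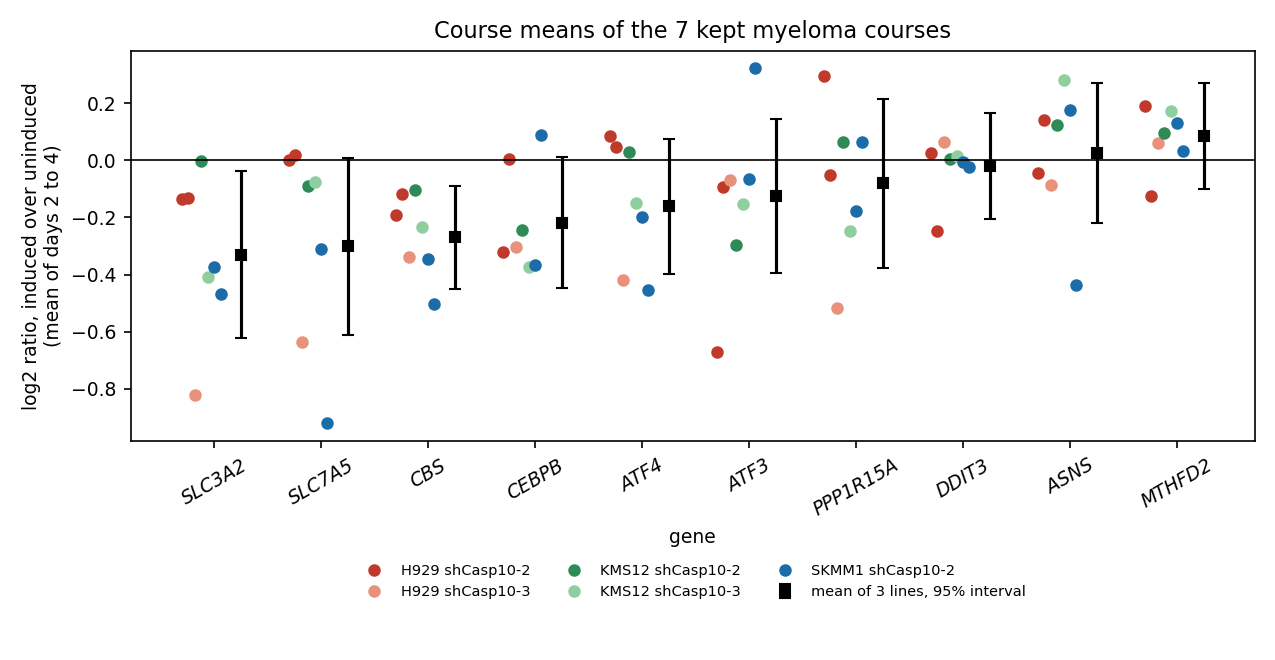
Circles give the mean log2 ratio over days 2 to 4 of each of the 7 kept myeloma courses, coloured by line and hairpin, and squares with bars give the limma estimate over the 3 lines with its 95% interval. The intervals of SLC3A2 and CBS end below 0 before any adjustment for the number of features, and those of the other 8 genes include 0.

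When single arrays were fitted with the course as a random replicate block (a shared correlation of 0.224 among arrays of a course), limma called 497 features, 335 of them lower (3.46%). CBS fell in that fit (-0.26, SE 0.064, adjusted p = 0.029) and was the only member called. The fit counts arrays of a course as partly independent, with 15 residual degrees of freedom against 4 on course means. Its p-values thus rest in large part on the spread among arrays within courses. CEBPB (adjusted p = 0.057), SLC7A5 (0.073) and SLC3A2 (0.083) did not pass. CASP10 was called lower in that fit (-0.28, SE 0.058, adjusted p = 0.017 in limma). On median-centred arrays the same fit called 441 lower features (4.56%), among them CBS (adjusted p = 0.018) and CEBPB (adjusted p = 0.029). Without H929 shCasp10-2 repeat 1, H929 shCasp10-3 or either KMS12 course the call of CBS was lost, with adjusted p from 0.055 to 0.24, and over all courses left out in turn the number of features called ranged from 24 to 871. CEBPB passed without H929 repeat 2 and without SKMM1 repeat 3, and SLC7A5 passed without SKMM1 repeat 1.

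Marker lists of cell types were read in the course means, where no feature was called. The 6 T and NK cell markers, genes that neither myeloma nor B lymphoma lines are known for, were all below 0 in the course means, from -0.44 to -0.20 with a median of -0.28. Of 7 plasma cell markers 5 were below 0, from -0.20 to 0.038, and of 6 mature B cell markers 3, from -0.28 to 0.12. Of 3 myeloid markers measured, 2 were below 0, from -0.10 to 0.009. The estimates of SLC3A2, SLC7A5, CBS and CEBPB lie within the range of the T and NK cell markers and below that of the myeloid markers. Log ratios hold no levels, so they do not show whether the lines express these markers. Any relation of the markers to the members' values was not tested.

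Line by line, no feature passed in SKMM1, H929 or KMS12 (0% each), with 2397, 530 and 533 at an unadjusted p under 0.05, although 863 passed in SKMM1 without its repeat 1 and 16 in KMS12 without shCasp10-3. SKMM1 had the lowest estimates for SLC7A5 (-0.62, SE 0.23, adjusted p = 0.19), SLC3A2 (-0.42, SE 0.22, adjusted p = 0.28) and CBS (-0.42, SE 0.14, adjusted p = 0.17) from limma. In the fit of single arrays with the replicate block 398 features were lower in SKMM1 (4.11%), and SLC7A5 (-0.58, adjusted p = 0.021) and CBS (-0.41, adjusted p = 0.028) were among them. On median-centred arrays 876 were lower (9.05%), and the same pair of genes was called. With the sign of repeat 3 turned, the SKMM1 estimates were 0.31 for SLC7A5, 0.048 for SLC3A2 and 0.079 for CBS. H929 gave -0.36 for SLC3A2 (SE 0.18, adjusted p = 0.84), and KMS12 gave -0.31 for CEBPB (SE 0.17, adjusted p = 0.82).

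No feature passed the test of a difference between lines (0% in each of the 3 pairs), although 1195 features for SKMM1 minus H929, 1877 for SKMM1 minus KMS12 and 232 for H929 minus KMS12 had an unadjusted p under 0.05. Without SKMM1 repeat 1 there were 609 features called for SKMM1 minus H929 and 764 for SKMM1 minus KMS12, and without KMS12 shCasp10-3 there were 23 for the latter, no member among them. The difference for SLC7A5 was -0.41 between SKMM1 and H929 (95% interval -1.14 to 0.32, adjusted p = 0.56 in limma). Between SKMM1 and KMS12 it was -0.53 (95% interval -1.34 to 0.27, adjusted p = 0.41 in limma). These intervals are wide enough to hold both no difference and a large one.

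The hairpins were compared within H929 and KMS12. On kept arrays SLC3A2 showed the largest difference among the members, with shCasp10-3 lower than shCasp10-2 by -0.57 (SE 0.18, 95% interval -1.02 to -0.11, unadjusted p = 0.025, adjusted p = 0.79 in limma). PPP1R15A followed at -0.50 (95% interval -1.06 to 0.065) and SLC7A5 at -0.36 (95% interval -1.10 to 0.38). No feature was called (0%), and 527 had an unadjusted p under 0.05. The H929 side of shCasp10-3 is 1 array, and without it the difference was -0.41 for SLC3A2, -0.31 for PPP1R15A and 0.014 for SLC7A5. With all arrays kept the difference was -0.26 for SLC3A2 (adjusted p = 1 in limma), and that of CBS was then the largest, at -0.78 (adjusted p = 1 in limma). CASP10 itself stood at -0.088 and 0.025 on the kept arrays of H929 with shCasp10-3, the hairpin set with the lowest SLC3A2. On the wide arrays of that set it stood at -1.31 on day 2 and -0.60 on day 3. In KMS12 it ranged from -0.39 to -0.24 with shCasp10-3 and from -0.54 to -0.51 on the kept arrays of shCasp10-2. Any relation of CASP10 to SLC3A2 was not tested.

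Against the control shRNA, which also carries doxycycline and an expressed hairpin in its reference cells, SKMM1 was measured on days 1 to 4. CEBPB stood at -0.60, -0.56, -0.86 and -0.60, all below every value of CEBPB against uninduced SKMM1 cells, a separation found for 0.733% of all features and no other member. SLC3A2 stood at -0.36, -0.93, -1.04 and -0.019, CBS at -0.32, -0.52, -0.29 and -0.36, and SLC7A5 at -0.42, -0.11, -0.25 and 0.22. All values of the first 3 genes and of ATF4 were below 0, as for 22.5% of all features, while SLC7A5 was above 0 on day 4. Over days 2 to 4 limma estimated -0.67 for CEBPB (SE 0.24, adjusted p = 0.32), -0.66 for SLC3A2 (SE 0.31, adjusted p = 0.41), -0.39 for CBS (SE 0.19, adjusted p = 0.43) and -0.047 for SLC7A5 (SE 0.33, adjusted p = 0.96). No feature was called (0%), and 1342 had an unadjusted p under 0.05. In the fit of single arrays with the replicate block 659 features were lower (6.81%), and CEBPB fell (adjusted p = 0.014) as the only member called, with SLC3A2 at an adjusted p of 0.11. The comparison is 1 course, its spread is that of the other courses, and the reference cells were not the same cells without the hairpin.

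ASNS and MTHFD2 had their lowest kept values in the lymphoma line OCI-Ly19. On days 3 and 4 of OCI-Ly19, ASNS stood at -1.97 and -0.86 and MTHFD2 at -2.07 and -1.18. In OCI-Ly7 the wide day 3 array gave -0.75 and -0.45, and the kept day 4 array gave -0.048 and 0.18. Both OCI-Ly19 values of MTHFD2 lie below all 21 kept myeloma arrays, as for 9.62% of all features and no other member, while for ASNS the day 4 value lies above the -1.09 of SKMM1 repeat 3. ATF4 was also low in OCI-Ly19, at -0.67 and -0.97. SLC3A2 went from 0.095 on day 3 to -1.17 on day 4, and SLC7A5 from 0.052 to -0.72.

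Over both lymphoma lines minus the myeloma lines, limma gave -0.76 for MTHFD2 (SE 0.43, adjusted p = 0.50), -0.62 for ASNS (SE 0.42, adjusted p = 0.55), -0.38 for ATF4 (SE 0.26, adjusted p = 0.55) and -0.24 for SLC3A2 (SE 0.26, adjusted p = 0.69). No feature was called (0%), and 1032 had an unadjusted p under 0.05. With arrays counted as wide above 5% of probes, OCI-Ly7 and SKMM1 repeat 3 dropped out and 176 features were lower in OCI-Ly19 than in myeloma (1.82%). MTHFD2 (-1.67, SE 0.22, adjusted p = 0.042) and ASNS (-1.47, SE 0.23, adjusted p = 0.046) were among them, in a fit with 1 lymphoma course, which was assumed to vary like the myeloma courses that give the SE. Without OCI-Ly19 the differences were 0.14 and 0.064, and 401 features other than members were called. Without OCI-Ly7 there were 23, again none of them a member. CASP10 was -0.24 and 0.12 on the OCI-Ly19 arrays.

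**Figure D4:**
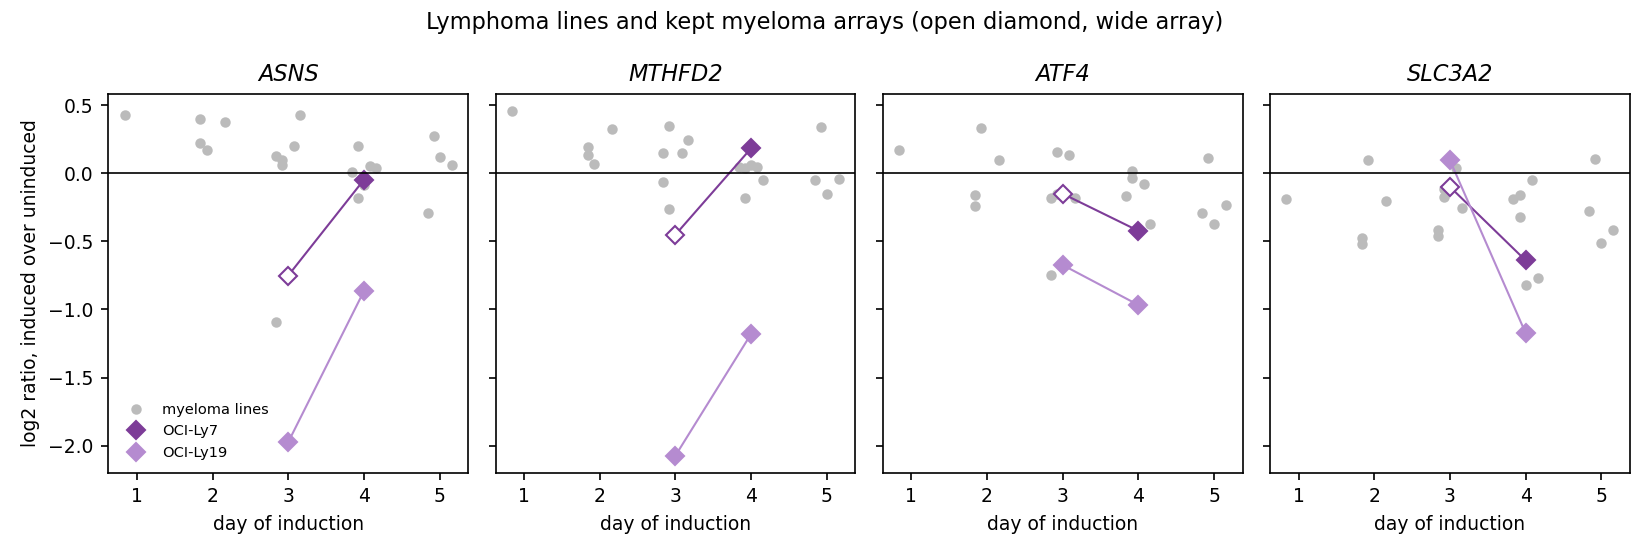
Each panel shows the log2 ratio of a gene against the day of induction, with purple diamonds for the lymphoma lines (open for the wide OCI-Ly7 array) and grey circles for the 21 kept myeloma arrays. The OCI-Ly19 diamonds of MTHFD2 lie below all grey circles, as for 9.62% of all features, and those of OCI-Ly7 on day 4 lie among them.

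Within courses, from day 2 to day 4, most members had a downward slope, but no feature passed (0%, with 602 at an unadjusted p under 0.05). The slopes per day were -0.22 for DDIT3 (SE 0.091), -0.21 for ASNS (SE 0.11), -0.17 for ATF4 (SE 0.074), -0.14 for MTHFD2 (SE 0.055) and 0.15 for CBS (SE 0.069), each with an adjusted p of 0.72 in limma. For 8 of the 10 genes the slope was below 0, and the members' median was -0.086 against 0.030 over all features. With all arrays kept, the slopes of DDIT3 and MTHFD2 were only -0.056 and -0.039, and those of ASNS and ATF4 -0.13 and -0.12. With the sign of SKMM1 repeat 3 turned, the slope was -0.034 for ASNS, -0.086 for ATF4, -0.14 for DDIT3, -0.12 for MTHFD2 and 0.12 for CBS. MTHFD2 showed the pattern in SKMM1 repeat 1 and in KMS12 with shCasp10-3, as given above.

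Across the 21 kept myeloma arrays, each minus its own median, the members fell into a connected group and 2 genes outside it. SLC3A2 followed ATF4 most closely (Pearson's r = 0.842, Spearman's rho = 0.913), and the r was 0.834 over the 7 SKMM1 arrays, 0.898 over the 8 of H929 and 0.893 over the 6 of KMS12. It was 0.853 without the 2 arrays farthest from the median of SLC3A2. SLC3A2 and its partner SLC7A5 correlated at 0.680, ATF4 and ASNS at 0.773, ATF4 and MTHFD2 at 0.716, and SLC7A5 and CBS at 0.745. The ATF4 and ASNS value dropped to 0.569 without the 2 farthest arrays, and that of SLC7A5 and CBS was 0.756 in SKMM1 but 0.320 in H929 and 0.281 in KMS12. CEBPB correlated with no other member above 0.394. Pearson's r of ATF3 ran from -0.018 with CEBPB and -0.07 with DDIT3 down to -0.652 with PPP1R15A. On arrays as deposited, ATF3 had an r of 0.312 with CEBPB and 0.024 with DDIT3. Without the 2 farthest arrays its r with DDIT3 was 0.095. Of the 45 pairs 10 were above 0.6 (22.2%), against 6.90% of all pairs of the 4604 named genes. The 22.2% depends on centring. As deposited, SLC3A2 and ATF4 correlated at 0.765, ATF4 and ASNS at 0.644, and SLC7A5 and CBS at 0.618. SLC3A2 and SLC7A5 were then at 0.541 and ATF4 and MTHFD2 at 0.518, both under 0.6. These are descriptions over arrays that share courses, dyes and slides of one design, and array-wide shifts that centring does not remove are part of them.

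**Figure D5:**
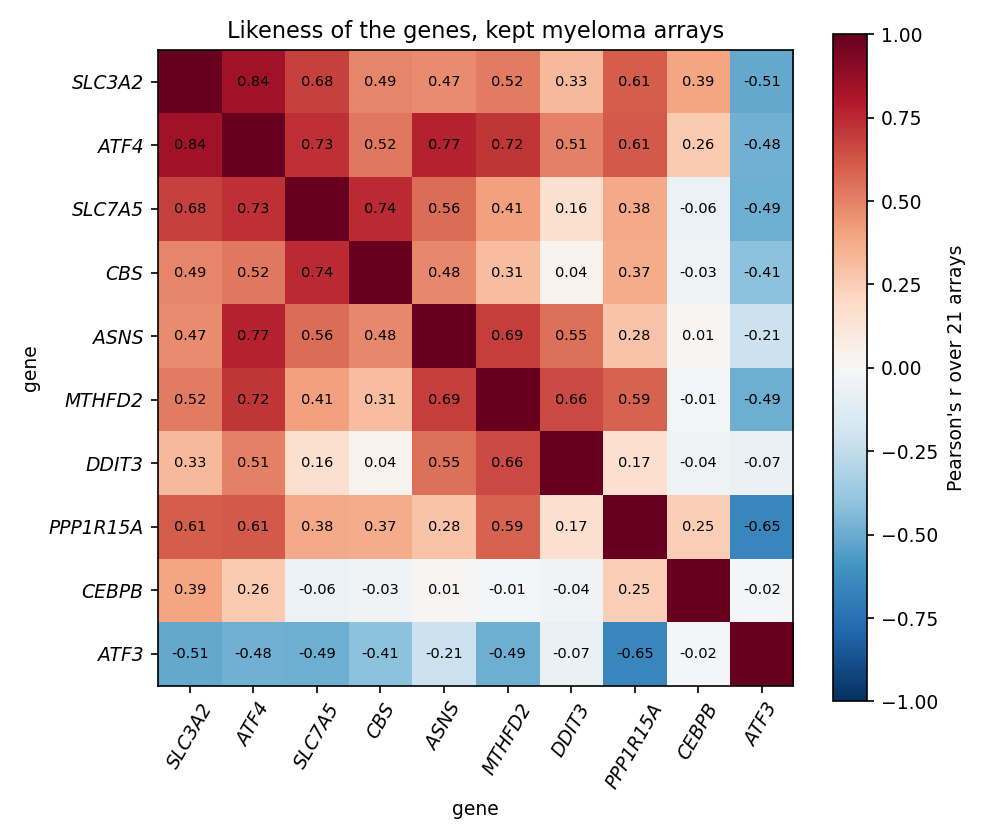
Each cell gives Pearson's r of a pair of genes over the 21 kept myeloma arrays after each array's median was subtracted, red above 0 and blue below. Cells among SLC3A2, ATF4, SLC7A5, ASNS and MTHFD2 are red, from 0.41 for SLC7A5 with MTHFD2 to 0.84 for SLC3A2 with ATF4. CBS, DDIT3 and PPP1R15A also have deep red cells, such as SLC7A5 with CBS, DDIT3 with MTHFD2 and ATF4 with PPP1R15A. CEBPB is pale, and the ATF3 row is blue, palest with CEBPB and DDIT3.

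Against the mean of SLC3A2 and SLC7A5, ATF4 had an r of 0.848, higher than 99.5% of the named genes, and CBS 0.689, higher than 94.1%. ASNS (0.568), PPP1R15A (0.524) and MTHFD2 (0.50) were higher than 87.0%, 84.1% and 82.7%, whereas DDIT3 (0.256), CEBPB (0.153) and ATF3 (-0.542) were higher than 68.7%, 63.5% and 19.9%. The 5 other named genes most like the pair were MLF2 (r = 0.938), PTMA (0.931), ACTB (0.909), INPPL1 (0.904) and GSS (0.901), and the least like were POU2F2 (-0.878), LRRC37A3 (-0.848) and IGIP (-0.847). ACTB is beta-actin, PTMA is prothymosin alpha and GSS is glutathione synthetase, while POU2F2 is the B cell factor OCT2.

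Other genes of the pathway were taken from a list of regulators, transporters, enzymes, tRNA synthetases and stress targets, of which 58 were measured. None was called in the course means, 7 had an unadjusted p under 0.05, 31 were below 0 and their median was -0.010, close to the 0.017 of all features. In the fit of single arrays with the replicate block 2 of the 58 fell, against 3.46% of all features lower. They were MAFG, a small Maf transcription factor (-0.40, SE 0.076, adjusted p = 0.015), and ALDH18A1, which makes the proline precursor pyrroline-5-carboxylate (-0.30, SE 0.082, adjusted p = 0.045).

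The amino acid and one-carbon enzymes were the group most to one side, with 11 of 12 below 0 in the course means and a median of -0.15. Among them GOT2, the mitochondrial aspartate aminotransferase, was estimated at -0.22 (adjusted p = 0.33 in limma), SHMT2, the mitochondrial serine hydroxymethyltransferase, at -0.14, and GCLC, which starts glutathione synthesis, at 0.15. The 11 genes of the eIF2 kinases and machinery were divided, 7 above 0 and 4 below, as were the 8 tRNA synthetases and export factors, 5 above and 3 below. AARS1, the alanyl-tRNA synthetase, stood at -0.29 and LARS1, the leucyl-tRNA synthetase, at 0.28. The 11 transcription factors had 5 above and 6 below, the 4 other amino acid transporters 2 each way, from -0.094 for SLC1A4 to 0.15 for SLC38A1. Of the 12 further stress targets 7 were above 0 and 5 below. TRIB3, a pseudokinase that ATF4 and CHOP switch on, stood at -0.30 (adjusted p = 0.30 in limma), and BBC3, which encodes the pro-apoptotic protein PUMA, at 0.73 (adjusted p = 0.52 in limma). Neither passed the test.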

How the data were processed

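The deposited values are log2 ratios as read here, 1 per probe and array, processed by the authors before deposit; their base, background correction and normalization are not stated in the labels, which give the dyes. There were 0 missing values among 15246 probes. Of these, 10169 had 1 gene symbol in the platform annotation, which is old, 4 had several and 5073 were not listed and are unnamed here; 10128 matched RefSeq (GRCh38.p14) and no symbol changed. Probes of 1 gene were averaged, giving 9681 features. Array medians ran from -2.15 to 0.36, and from -0.11 to 0.31 on kept arrays.

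Responses were tested with limma 3.58.1 (R 4.3.3) on course means of kept arrays, days 2 to 4, against 0, with Benjamini-Hochberg adjustment over all features and a threshold of 0.05. Replicates are courses; the labels call repeats of H929 and SKMM1 biological. Repeat numbers were taken as pairing the days. Deviations from the mean of a day (wide arrays included) correlated from 0.320 to 0.613 over the 9 same-numbered pairs of SKMM1. They correlated from -0.624 to 0.427 over its 18 pairs with other numbers. The ranges overlap, and deviations from a shared mean depend on one another, so they do not settle the pairing. Over the 6 same-numbered pairs of H929 they ran from -0.137 to 0.423. With 2 repeats there the deviations mirror each other, and the data do not show pairing. Day 1 arrays and day 5 arrays enter no course mean. The fits were tested on simulated data with normal noise. Every simulated feature had the same correlation of 0.22 among arrays of a course, the value that the replicate block fit found here. The simulation therefore meets the assumption of that fit and does not test it. Changes were placed only in features of below-median spread and were equal in all lines. Of 100 such features changed by 0.5, course means recovered 35% and single arrays with a replicate block 95%. At 1 they recovered 97% and 100%, with 11 and 20 false calls among the other features. Recovery for features of larger spread, or with the one-sided tails of the real arrays, was not simulated. Members and lists were chosen with earlier results of these data known. Beyond the members, genes were named if they belong to the wider list and passed a fit or serve as its examples (GOT2, SHMT2, GCLC, AARS1, LARS1, SLC1A4, SLC38A1, TRIB3 and BBC3 were picked as examples after their values were seen), or if they were the 5 most and 3 least like SLC3A2 and SLC7A5, besides CASP10. No arrays held identical values. Probe sequences and positions were not used here. Alternatives are listed at the end.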

Additional observations from a re-analysis of the deposited data

Results flagged for a closer look

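Course means of the 10 genes were checked for a value far from the others, over the 7 kept myeloma courses and over the 8 courses with wide arrays included, 20 checks in all. Chance flags about 1 in 20 such groups, and the 2 sets of a gene share most of their values, so the checks are not independent. There were 3. DDIT3 in H929 with shCasp10-2 repeat 2 stood at -0.246, below the other 6 kept courses, and its day 4 array alone was -0.83. SLC7A5 in SKMM1 repeat 3 stood at -0.908 with its wide day 4 array included, below the other 7 courses. CBS in H929 with shCasp10-3 stood at -1.358 with the wide arrays of days 2 and 3 included, against -0.34 on the kept day 4 array. No difference between lines, hairpins or cell types passed for any member in the 50 tests made on course means of kept arrays.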

How the results depend on the processing

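The number of arrays and the lack of intensities limit the precision, and no member passed a test on course means of the arrays as kept. Of the alternatives tried for the members' estimates and likeness, 534 left direction and call as they were or moved a value little, 11 passed a threshold that the estimate had missed, 11 moved a correlation by over 0.1 and 19 changed sign. Fitting single arrays with a replicate block, in place of course means, called 497 of the 9681 features in the myeloma response with 1 member. It called 1571 in SKMM1 with 2 members, 1 in KMS12 and 470 for SKMM1 minus KMS12. It called 781 against the control shRNA with 1 member and 1 for lymphoma minus myeloma. These members were all called lower, as were 3.46% of all features in the myeloma response, 4.11% in SKMM1 and 6.81% against the control shRNA. With the arrays also median-centred, an alternative added after seeing the data, the replicate block fits called 631 with 2 members, 1929 with 2 members, 2, 311, 961 with 1 member and 1, in the same order. With arrays counted as wide above 5% of probes, 5 features were called in SKMM1 and 206 for lymphoma minus myeloma with 2 members. Leaving out a course (the highest counts came without SKMM1 repeat 1, in KMS12 without shCasp10-3, and for lymphoma minus myeloma without OCI-Ly19) gave from 0 to 197 features in the myeloma response, 0 to 863 in SKMM1, 0 to 16 in KMS12, 0 to 609 for SKMM1 minus H929, 0 to 764 for SKMM1 minus KMS12 and 0 to 401 for lymphoma minus myeloma.

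The sign changes among the estimates and correlations given in the text were these, and their cause was not tested beyond the setting named. With SKMM1 repeat 3 turned, SLC7A5 was 0.006 in the myeloma response, 0.307 in SKMM1, 0.512 for SKMM1 minus H929 and 0.39 for SKMM1 minus KMS12, and in SKMM1 SLC3A2 was 0.048 and CBS 0.079. With repeat 2 turned and all arrays kept, ATF3 was 0.012 and DDIT3 0.02. With all arrays kept, ATF4 and PPP1R15A were each 0.001, and 81.3% of all features were below 0. On days 3 and 4 alone ASNS was -0.112. Leaving out a course, ASNS ranged from -0.077 to 0.128 and DDIT3 from -0.038 to 0.014 in the myeloma response, SLC7A5 from -0.647 to 0.014 between hairpins, and ASNS from -1.307 to 0.064 and MTHFD2 from -1.668 to 0.141 for lymphoma minus myeloma. On arrays as deposited, the correlation of CEBPB with the mean of SLC3A2 and SLC7A5 was -0.029 and that of DDIT3 -0.07. Sign changes in the correlation of ATF3 with CEBPB and with DDIT3 are given with the correlations above. Without the replicate block the slope of MTHFD2 per day was -0.10 (adjusted p = 0.89 in limma). Members' estimates that the text does not give changed sign in 133 of 1228 further cases.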
